A study of Mus musculus with 6 samples.

Results

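The genes described here encode the nuclear-encoded subunits of respiratory complex I and the assembly factors named after it. Members were all genes whose symbol begins Nduf followed by a, b, c, s, v, ab or af and a number, each read from the brightest probe set that the platform annotation gives to that gene alone. They numbered 43 of the 19938 genes measured. They comprised 6 core subunits, 28 accessory subunits, 7 assembly factors with Ndufaf symbols, and Ndufa4 and Ndufa4l2, which bear the family name and are described as complex IV-associated proteins.

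The samples were 3 pulldown arrays, which hold RNA co-precipitated with an antibody to Staufen2, a double-stranded RNA-binding protein, and 3 input arrays of total RNA. Both came from cytoplasmic lysates of one immortalized mouse podocyte line. All cells had been differentiated by a switch from the permissive to the non-permissive temperature with withdrawal of gamma-interferon, so these features were common to both groups. A pulldown with a control antibody was not analysed here, so a difference compares the make-up of the recovered RNA with that of the input and does not measure binding. From each sample 100 ng of RNA was amplified and labelled, and yield is therefore not measured. Whether replicates are separate cultures is not given in the labels, and the p-values then reflect the spread of these arrays alone, which may be technical. With 3 arrays against 3 an exact permutation test cannot go below p = 0.10, so single genes were judged by the limma fit.

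Complex I is the entry point of the mitochondrial respiratory chain. It takes electrons from NADH through a flavin and a chain of iron-sulfur clusters to ubiquinone and couples this to the pumping of protons across the inner membrane. Its matrix arm holds the NADH-oxidising and quinone-reducing modules built around the nuclear-encoded core subunits. Its membrane arm is built around subunits encoded in mitochondrial DNA and carries many small accessory subunits. Assembly factors bind intermediates of the growing complex and are not part of the finished enzyme. Podocytes are the filtration barrier cells of the kidney glomerulus.

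Levels are RMA log2 values per array, and differences are pulldown minus input on that log2 scale. A gene was called higher or lower at a Benjamini-Hochberg adjusted p under 0.05 in limma's moderated test, fitted to all 19938 genes. The medians of the arrays lay between 6.53 and 6.54. Pearson's r between arrays ranged from 0.998 to 0.999 inside a group and from 0.982 to 0.983 across groups, and precision is limited by having 6 arrays. Of the 14 podocyte markers listed, 11 were measured, and 6 of these (Actn4, Cd2ap, Lmx1b, Nes, Synpo and Wt1) exceeded 6.54 in the input, the median over every value of the table and called the overall median from here on. Nphs1, Plce1, Podxl, Ptpro and Tcf21 did not, and signal at that level can be background. The log2 of the summed podocyte marker signal was 14.40 to 14.43 in the pulldown arrays, against 14.04 to 14.10 in the input arrays, and 8 of the 11 were called higher and 0 lower. These 11 genes had a median genomic span, introns included, of 66193 bases. Of 3339 coding genes outside the members that span 30 to 100 kb, 2156 were higher and 456 lower. That set, unlike the markers, holds only genes above the overall median, and the part of span was not tested. Over all genes 31.3% were called higher and 17.3% lower, and the endothelial and tubular marker counts that follow lie near these shares. Among markers of other cells, the summed signal of 6 mesangial and smooth muscle genes, 3 of which were called higher and 0 lower, was 14.29 to 14.32 in the pulldown and 14.03 to 14.05 in the input. That of 7 endothelial genes, 3 of them higher and 1 lower, was 10.91 to 10.96 in the pulldown and 10.66 to 10.70 in the input. The 6 tubular genes, 2 of them higher and 1 lower, gave 10.32 to 10.39 in the pulldown and 10.16 to 10.20 in the input, and the 6 immune genes, 0 of them higher and 2 lower, 8.95 to 9.03 in the pulldown and 9.17 to 9.25 in the input. The 1 lower tubular call, of Aqp1 at -0.11, was lost with a replicate block, which gave 4 higher and 0 lower, and in 5 of the 6 fits that left out an array. The lower endothelial call was lost without pulldown replicate 1. In the input 4 of the 6 mesangial and smooth muscle genes, 2 of the 7 endothelial, 3 of the 6 tubular and 2 of the 6 immune genes exceeded 6.54. Signal of the rest can be background, and these include Emcn, the lower endothelial call, and Kdr and Tek, called higher. Ehd3, the other endothelial gene called higher, stood at 10.65 in the pulldown and 10.34 in the input. The part of these other cell types in the results was not tested.

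Transcripts of complex I subunits were scarcer in the pulldown RNA than in the input RNA, with 1 exception among the 34 subunits measured. All 28 accessory subunit genes fell, by 1.40-fold to 5.04-fold. Of the 6 core subunit genes 5 fell and Ndufs1 rose by 1.15-fold. Of the 7 Ndufaf assembly factor genes 3 fell, and 4 did not pass the test, with log2 differences between -0.08 and -0.05. Over all 43 members 37 were lower, 1 was higher and 5 did not pass, against 48.7% of all genes called in either direction, 17.3% called lower and 31.3% called higher. Of the calls over all genes 64.4% were higher, and 52.9% after cyclic loess normalization or 56.1% after centring on the brightest probe sets, 2 scalings under which 39 and 38 members were lower.

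The median log2 difference was -0.99 over the 43 members, which corresponds to 1.99-fold lower, against 0.04 over all genes. It was -1.19 for the accessory subunits, -0.71 for the core subunits and -0.08 for the assembly factors. The quartiles were -1.59 and -0.94 for the accessory genes, -0.94 and -0.51 for the core genes, and -0.73 and -0.06 for the assembly factors. At least 2-fold lower values were found for 18 accessory genes, 1 core gene, 1 assembly factor and Ndufa4, 21 members in all, against 2.01% of all genes. At least 2-fold higher values were found for 0 members, against 1.67% of all genes, and Ndufs1 was the only member with a positive difference. In 38 members every pulldown array lay below every input array, against 19.6% of all genes, and in Ndufs1 every pulldown array lay above, against 36.4%. When all genes were ordered from the most negative difference upward, 33 of the 43 members fell in the lowest 5% and 37 in the lowest 10%. The differences between the classes are descriptions of these members and were not tested. The classes also differed in level, with median input levels of 10.47 for the accessory, 11.36 for the core and 8.12 for the assembly genes. The part of level in the class differences was not tested.

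The gap between the groups can be read array by array. The median level of the 28 accessory genes was 9.27, 9.27 and 9.31 in the pulldown arrays, against 10.46, 10.49 and 10.46 in the input arrays. For the 6 core genes it was 10.49, 10.39 and 10.44 in the pulldown arrays, against 11.38, 11.31 and 11.39 in the input arrays. The assembly factors had medians of 7.89, 7.85 and 7.92 in the pulldown arrays, against 8.15, 8.17 and 8.04 in the input arrays. In each class the 3 pulldown medians lay below the 3 input medians, with the narrowest gap for the assembly factors. Over all genes the medians were 7.54, 7.51 and 7.53 in the pulldown and 7.48, 7.47 and 7.49 in the input.

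**Figure D1:**
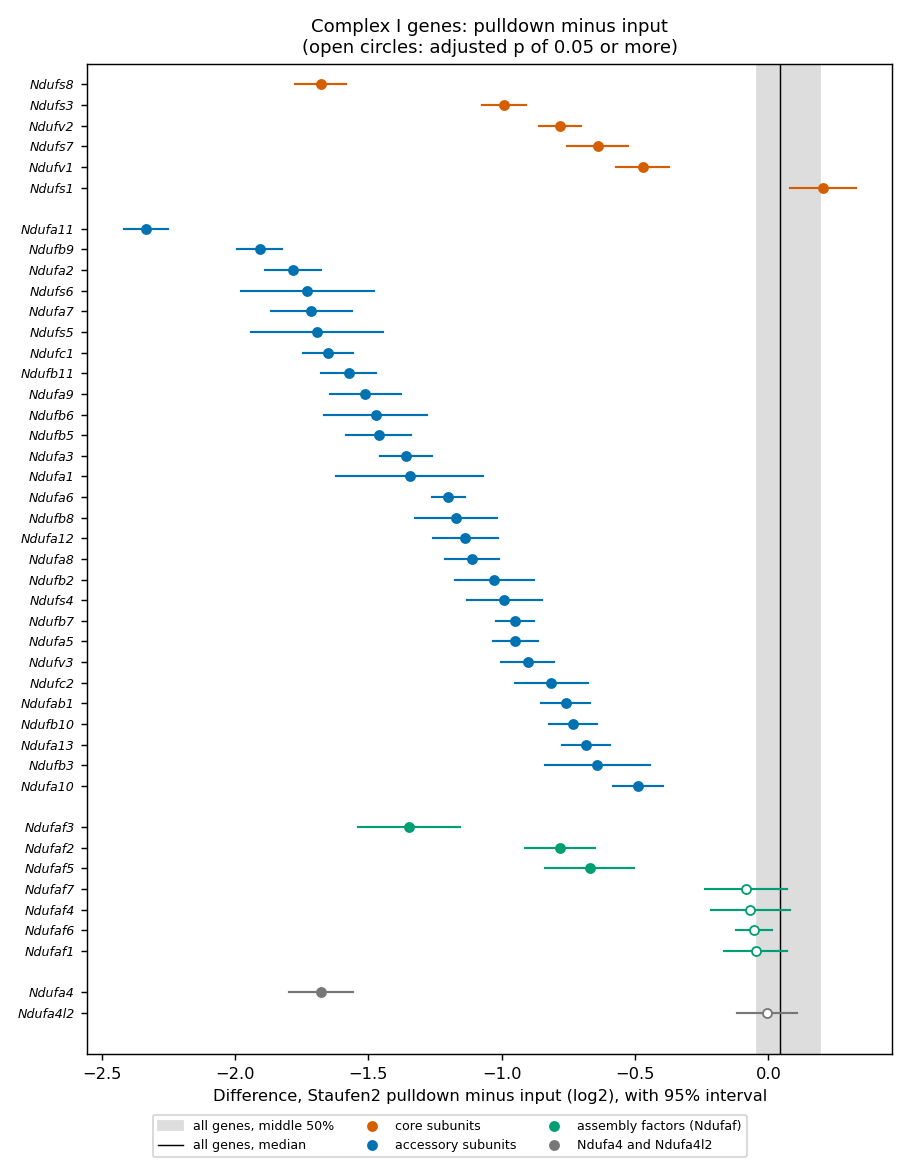
Difference between Staufen2 pulldown and input (horizontal axis, log2) for each of the 43 members, with 95% intervals from limma as lines, grouped by class, beside the median (line) and the middle 50% (grey band) of all genes. The accessory subunits run from -2.33 to -0.49, Ndufs1 is the only filled point right of 0, and the open circles of Ndufaf7, Ndufaf4, Ndufaf6, Ndufaf1 and Ndufa4l2 did not pass the test.

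Because most members moved together, stretches just upstream of their genes are shown for the most negative core and accessory genes, Ndufs8 and Ndufa11, and for 2 assembly factors that did not pass the test, Ndufaf1 and Ndufaf4. Promoters act on transcription, whereas the comparison is between 2 samples of finished RNA, so the stretches serve to identify the genes and no site is inferred. Each is the 150 bases before the annotated start, on the gene's strand, from RefSeq on GRCm38.p6. Ndufs8 lies on the minus strand at chr19:3912775-3912924, Ndufa11 on the plus strand at chr17:56717612-56717761, Ndufaf1 on the minus strand at chr2:119662835-119662984 and Ndufaf4 on the plus strand at chr4:24897933-24898082. Capitals mark matches, on either strand, to 5 motifs. They were TGCGCA, which occurs in some but not all sites of the respiratory gene activator NRF1, the ETS motif CCGGAAGT, CCAAT, the GC box GGGCGG and TATAAA.
Ndufs8: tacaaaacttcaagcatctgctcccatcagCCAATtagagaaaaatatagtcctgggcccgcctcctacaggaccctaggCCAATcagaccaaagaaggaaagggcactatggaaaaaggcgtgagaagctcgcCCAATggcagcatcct
Ndufa11: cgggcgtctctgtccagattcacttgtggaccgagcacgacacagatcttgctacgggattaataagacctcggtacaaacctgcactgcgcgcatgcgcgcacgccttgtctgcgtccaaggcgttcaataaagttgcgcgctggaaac
Ndufaf1: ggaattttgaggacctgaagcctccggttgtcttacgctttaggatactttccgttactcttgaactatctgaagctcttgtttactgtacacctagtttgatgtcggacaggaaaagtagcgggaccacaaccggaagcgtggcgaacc
Ndufaf4: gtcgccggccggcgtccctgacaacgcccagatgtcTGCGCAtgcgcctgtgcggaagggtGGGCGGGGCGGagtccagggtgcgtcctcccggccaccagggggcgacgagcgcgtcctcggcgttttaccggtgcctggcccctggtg
The Ndufs8 stretch holds CCAAT, the Ndufaf4 stretch holds TGCGCA and overlapping GC boxes, and the Ndufa11 and Ndufaf1 stretches hold none of these 5. The Ndufa11 stretch does hold the fuller NRF1 site described below, which is not put in capitals. Of the 43 members 38 had RefSeq windows. Ndufa5 and Ndufa7 had 2 windows each, and a match in either was counted. The fuller NRF1 site, GCGCA followed directly by its reverse complement, was searched first. It stood in 2 of the 38 members (5.26%), Ndufa11 and Ndufaf4, against 0.733% of 27025 genes with a window. Those genes are not limited to the 19938 measured, so the shares compare unlike gene sets. The shorter motif TGCGCA was taken up after that result was seen. The fuller site does not itself contain it, and Ndufa11 lacks it. It stood in 7 members (18.4%), against 5.66%, and in Ndufaf4 it overlaps the fuller site. For the GC box it was 13 (34.2%) against 31.3%, for CCAAT 9 (23.7%) against 27.7%, for TATAAA 2 (5.26%) against 8.89%, and for the ETS motif 0 against 2.72%.

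The core subunits differed widely among themselves. Ndufs8, an iron-sulfur subunit of the quinone-reducing module, stood at 9.84, 9.92 and 9.87 in the pulldown arrays, against 11.55, 11.49 and 11.62 in the input arrays. It was 3.2-fold lower, a log2 difference of -1.68 ± 0.041 (SE) with a limma adjusted p of 2.2e-07, and the groups lay far apart. Ndufs3, which forms the scaffold of the same module, stood at 10.22, 10.15 and 10.16 in the pulldown arrays, against 11.21, 11.12 and 11.16 in the input arrays. Its difference was -0.99 ± 0.035 (SE), with a limma adjusted p of 5.3e-07 and no overlap. Ndufs7, the iron-sulfur subunit next to the quinone site, stood at 11.82, 11.90 and 11.75 in the pulldown arrays, against 12.41, 12.46 and 12.52 in the input arrays. It was lower by less than its module partners, with a difference of -0.64 ± 0.048 (SE) and an adjusted p of 1.7e-05. These 3 core genes thus covered differences of -1.68, -0.99 and -0.64.

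Among the core genes, those of the NADH-oxidising module held the smallest fall and the only rise. Ndufv2, an iron-sulfur subunit, stood at 11.08, 11.17 and 11.12 in the pulldown arrays, against 11.93, 11.87 and 11.91 in the input arrays, a difference of -0.78 ± 0.034 (SE) with an adjusted p of 1.1e-06. Ndufv1, the subunit that binds NADH and the flavin, stood at 10.31, 10.23 and 10.23 in the pulldown arrays, against 10.79, 10.66 and 10.72 in the input arrays, a difference of -0.47 ± 0.042 (SE) with an adjusted p of 4.4e-05. Pulldown and input did not overlap for either gene. Ndufs1, the largest subunit of the complex, which carries iron-sulfur clusters, stood at 10.67, 10.55 and 10.65 in the pulldown arrays, against 10.50, 10.32 and 10.43 in the input arrays. It was 1.15-fold higher, with a difference of 0.20 ± 0.053 (SE), a 95% interval of 0.08 to 0.33 and an adjusted p of 0.014, and the lowest pulldown array lay above the highest input array. This call was the weakest among the members called. Without pulldown replicate 1 it stood at 0.18 with an adjusted p of 0.058, without pulldown replicate 3 at 0.19 with an adjusted p of 0.055, and after cyclic loess normalization at 0.10 with an adjusted p of 0.15. The call held in the other 4 fits that left out an array, at 0.16 to 0.25 with adjusted p-values of 0.010 to 0.046, and after centring on the brightest probe sets, at 0.16 with an adjusted p of 0.026. The 95% interval of Ndufs1 lies above those of the other 5 core genes.

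**Figure D2:**
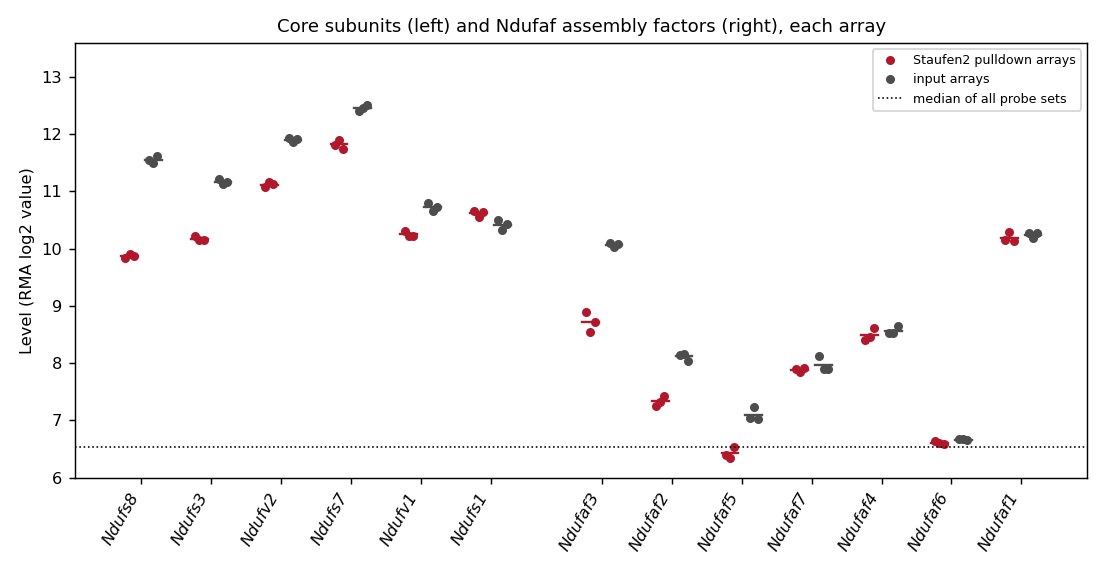
Level of each core subunit (left) and each Ndufaf assembly factor (right) on every array (vertical axis, RMA log2 value), with pulldown arrays left of input arrays, bars at the group means and a dotted line at the overall median (6.54). The pulldown points lie below the input points for 5 core genes and for Ndufaf3, Ndufaf2 and Ndufaf5, above them for Ndufs1, and at nearly the same level for the other 4 assembly factors.

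The accessory subunits, which surround the core and serve its assembly and stability, moved one way, since 28 of 28 fell and their groups did not overlap. Their adjusted p-values in limma's test lay between 1.1e-07 and 3.8e-04, and their SEs between 0.026 and 0.12. The most negative was Ndufa11, a membrane arm subunit related to the Tim17 family of import proteins, at 9.53, 9.44 and 9.42 in the pulldown arrays, against 11.78, 11.81 and 11.80 in the input arrays. Its difference of -2.33 ± 0.035 (SE) makes it 5.04-fold lower and the 19th most negative of all genes. The second probe set of Ndufa11 stood at -1.69, and the RefSeq gene table lists a pseudogene copy, Ndufa11b, so the size for this gene is uncertain although both probe sets lay lower. Ndufb9, a LYR motif protein of the membrane arm that binds the mitochondrial acyl carrier protein, stood at 9.27, 9.37 and 9.35 in the pulldown arrays, against 11.26, 11.24 and 11.21 in the input arrays, a difference of -1.91 ± 0.036 (SE) or 3.75-fold lower.

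The next 6 accessory genes were at least 2.98-fold lower. Ndufa2, a matrix arm subunit with a thioredoxin-like fold, stood at 9.17, 9.14 and 9.30 in the pulldown arrays, against 10.98, 10.996 and 10.99 in the input arrays, a difference of -1.78 ± 0.045 (SE). Ndufs6, a zinc-binding subunit of the NADH-oxidising module, stood at 8.76, 8.37 and 8.70 in the pulldown arrays, against 10.21, 10.40 and 10.41 in the input arrays, a difference of -1.73 ± 0.11 (SE). Ndufa7 of the matrix arm stood at 8.28, 8.28 and 8.44 in the pulldown arrays, against 10.02, 9.96 and 10.17 in the input arrays, a difference of -1.71 ± 0.064 (SE). For each of these 3 matrix arm genes every pulldown value lay below every input value. Ndufs5, a membrane arm subunit that faces the intermembrane space, stood at 7.80, 7.47 and 7.63 in the pulldown arrays, against 9.21, 9.24 and 9.52 in the input arrays, a difference of -1.69 ± 0.11 (SE). Ndufc1, a small single-pass subunit of the membrane arm, stood at 9.43, 9.57 and 9.47 in the pulldown arrays, against 11.12, 11.13 and 11.16 in the input arrays, a difference of -1.65 ± 0.040 (SE). Ndufb11, an X-linked membrane arm subunit, stood at 9.90, 9.82 and 9.75 in the pulldown arrays, against 11.36, 11.42 and 11.42 in the input arrays, a difference of -1.57 ± 0.043 (SE). The replicate spread was widest for Ndufs6 and Ndufs5 among these and still far below the gap between the groups.

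At the other end of the class, Ndufab1, Ndufb10, Ndufa13, Ndufb3 and Ndufa10 showed the smallest falls. Ndufa10, a membrane arm subunit with the fold of a nucleoside kinase, stood at 11.18, 11.13 and 11.21 in the pulldown arrays, against 11.72, 11.60 and 11.67 in the input arrays, a difference of -0.49 ± 0.040 (SE) or 1.4-fold lower. Ndufb3, a small subunit of the membrane arm, stood at 8.04, 7.88 and 7.92 in the pulldown arrays, against 8.42, 8.59 and 8.75 in the input arrays, a difference of -0.64 ± 0.084 (SE) with an adjusted p of 3.8e-04. Ndufa13, also known as GRIM-19, stood at 9.28, 9.26 and 9.31 in the pulldown arrays, against 9.97, 9.91 and 10.03 in the input arrays, a difference of -0.68 ± 0.038 (SE). These 3 genes were called lower and their groups did not overlap. Ndufb10, a subunit with cysteine motifs on the intermembrane space side, stood at 6.95, 6.95 and 7.06 in the pulldown arrays, against 7.75, 7.70 and 7.70 in the input arrays, a difference of -0.73 ± 0.038 (SE). Ndufab1, the mitochondrial acyl carrier protein, which also serves fatty acid synthesis and iron-sulfur cluster formation, had a difference of -0.76 ± 0.039 (SE), and its second probe set gave -0.80.

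The remaining 15 accessory genes lay between these ends. Ndufa9, a nucleotide-binding subunit at the junction of the arms, had a difference of -1.51 ± 0.057 (SE). Ndufb6 and Ndufb5 of the membrane arm stood at -1.47 and -1.46, and the small membrane arm subunits Ndufa3 and Ndufa1 at -1.36 and -1.35. Ndufa1 had the largest SE of any member, 0.12. Ndufa6, the LYR motif partner of the acyl carrier protein in the matrix arm, was at -1.20 ± 0.026 (SE), the smallest SE of any member. Ndufb8, Ndufa12, Ndufa8 and Ndufb2 stood at -1.17, -1.14, -1.11 and -1.03. Ndufs4, a subunit added late to the matrix arm and known for mutations in Leigh syndrome in humans, stood at -0.99, close to Ndufb7 and Ndufa5 at -0.95 and -0.95. Ndufv3 and Ndufc2 followed at -0.90 and -0.81.

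By position in the complex, the accessory genes of both arms had medians close to each other. The 9 accessory genes of the matrix arm had a median difference of -1.20 and ran from -1.78 to -0.90. The 18 accessory genes of the membrane arm had a median of -1.26 and ran from -2.33 to -0.49. Ndufab1 belongs to both arms and was left out of this count. With the core genes included the 15 matrix arm genes had a median of -0.99, of which 14 were lower and 1, Ndufs1, was higher.

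The assembly factors held both called and uncalled genes. Ndufaf3 and Ndufaf4, whose human proteins bind each other and act early on the quinone module, had unlike values. Ndufaf3 stood at 8.90, 8.55 and 8.71 in the pulldown arrays, against 10.10, 10.03 and 10.08 in the input arrays, a difference of -1.35 ± 0.081 (SE) or 2.55-fold lower with an adjusted p of 5.1e-06. Ndufaf4 stood at 8.40, 8.46 and 8.62 in the pulldown arrays, against 8.52, 8.52 and 8.65 in the input arrays, a difference of -0.07 ± 0.063 (SE) with a 95% interval of -0.22 to 0.08 and an adjusted p of 0.42. The groups were well apart for Ndufaf3 and overlapped for Ndufaf4, and the 2 intervals did not overlap.

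Ndufaf2, a paralog of the subunit Ndufa12 that in human cells holds its place during late assembly, stood at 7.25, 7.33 and 7.43 in the pulldown arrays, against 8.15, 8.17 and 8.04 in the input arrays. Its difference of -0.78 ± 0.056 (SE), with a limma adjusted p of 1.2e-05, compares with -1.14 for Ndufa12, and both genes were lower. Ndufaf5, whose human protein hydroxylates an arginine of the subunit encoded by Ndufs7, stood at 6.39, 6.34 and 6.54 in the pulldown arrays, against 7.04, 7.23 and 7.02 in the input arrays. Its difference was -0.67 ± 0.071 (SE) with an adjusted p of 1.1e-04. Its pulldown mean of 6.42 is under the overall median, so the size of this fall is uncertain.

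Ndufaf1, which in human cells belongs to a complex that assembles the membrane arm, stood at 10.15, 10.30 and 10.13 in the pulldown arrays, against 10.27, 10.19 and 10.27 in the input arrays. The groups overlapped, and the difference was -0.05 ± 0.050 (SE) with a 95% interval of -0.16 to 0.07 and an adjusted p of 0.48. Ndufaf7, whose human protein is a methyltransferase, stood at 7.89, 7.85 and 7.92 in the pulldown arrays, against 8.13, 7.89 and 7.89 in the input arrays. The difference was -0.08 ± 0.066 (SE), the interval -0.24 to 0.07 and the adjusted p 0.33, with overlap. Ndufaf6, a factor with similarity to prenyltransferases, stood at 6.64, 6.61 and 6.58 in the pulldown arrays, against 6.68, 6.67 and 6.65 in the input arrays, close to the overall median. Its pulldown arrays lay just below the input arrays, and the difference was -0.05 ± 0.029 (SE) with an interval of -0.12 to 0.01 and an adjusted p of 0.17. The intervals of these 3 genes and of Ndufaf4 lay wholly above the difference of Ndufv1 (-0.47), the smallest fall among the subunits. After cyclic loess Ndufaf1 and Ndufaf6 passed the test, at -0.16 and -0.10 with adjusted p-values of 0.034 and 0.028, and Ndufaf6 also after centring on the brightest probe sets, at -0.09 with an adjusted p of 0.033.

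Of the complex IV-associated pair, Ndufa4 was lower and Ndufa4l2 was not called. Ndufa4 stood at 9.76, 9.59 and 9.72 in the pulldown arrays, against 11.42, 11.36 and 11.32 in the input arrays. Its difference was -1.68 ± 0.051 (SE), or 3.2-fold lower, with an adjusted p of 3.3e-07 and no overlap. Ndufa4l2, a paralog known to be induced by hypoxia, stood at 6.42, 6.44 and 6.29 in the pulldown arrays, against 6.40, 6.34 and 6.43 in the input arrays, under the overall median. Its difference was -0.01 ± 0.047 (SE), with an interval of -0.12 to 0.11 and a limma adjusted p of 0.93, at a level that can be background.

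Several members could be read from more than 1 probe set. For the 5 genes with 2 probe sets of their own, the brighter and the dimmer gave -2.33 and -1.69 for Ndufa11, -1.65 and -1.45 for Ndufc1, -1.57 and -1.43 for Ndufb11, -0.99 and -1.01 for Ndufs3, and -0.76 and -0.80 for Ndufab1. All 10 lay lower in the pulldown. Outside the rule, 2 probe sets shared by Ndufb4 and its copy Ndufb4b gave -1.75 and -1.67, and 1 shared by Ndufs5 and its pseudogene gave -1.36. These copies cannot be told apart on the array. RefSeq also lists pseudogenes of Ndufab1, Ndufs6 and Ndufa12, so the values of these genes are uncertain in the same way.

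Further assembly factors of complex I that carry other names showed a mixed pattern. Of 14 listed, 13 were measured, of which 9 were lower, 3 were higher and 1 did not pass, against 17.3% of all genes lower and 31.3% higher. Their median difference was -0.24 against 0.04 over all genes, and none was at least 2-fold lower. The lower ones included Lyrm2 at -0.81 ± 0.049 (SE) and Dmac1 at -0.75 ± 0.081 (SE), followed by Foxred1 (-0.46), Dnajc30 (-0.33), Nubpl (-0.29), whose human protein delivers iron-sulfur clusters, the membrane insertase Oxa1l (-0.29) and Tmem70 (-0.24). Nubpl stood at 5.93 in the pulldown and 6.23 in the input, under the overall median. Among the partners of Ndufaf1 in the human membrane arm assembly complex, Ecsit (-0.21) and Tmem126b (-0.18) were lower, while Acad9 (0.21) and Tmem186 (0.44 ± 0.071 (SE)) were higher. Aifm1, which supports import of respiratory chain proteins, was higher at 0.17, and Timmdc1, at 0.02, did not pass with a limma adjusted p of 0.78. After cyclic loess 9 were lower and only Tmem186 was higher, with Acad9 at 0.10 and Aifm1 at 0.06 no longer called. Aifm1 also lost its call after centring on the brightest probe sets, with a limma adjusted p of 0.061. In the test against 1.2-fold only Lyrm2 and Dmac1 stayed lower and 0 were higher. Leaving out single arrays gave 6 to 8 lower and 1 to 3 higher. There were 6 lower without pulldown replicate 1, and 1 higher without pulldown replicate 1, pulldown replicate 3 or input replicate 2. In these fits Tmem126b, at a limma adjusted p of 0.046 with all arrays, kept its call only without input replicate 3. Dnajc30, Acad9 and Aifm1 lost theirs without pulldown replicate 1, pulldown replicate 3 or input replicate 2. Dnajc30 and Aifm1 also lost theirs without input replicate 3, and Ecsit without pulldown replicate 1 or 2.

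Among mitochondrially encoded subunits, ND3 was the only one measured by single-symbol probe sets here. It stood at 10.10, 10.16 and 10.00 in the pulldown arrays, against 12.22, 12.17 and 12.17 in the input arrays, a difference of -2.10 ± 0.044 (SE) or 4.27-fold lower with a limma adjusted p of 1.9e-07. A second ND3 probe set gave -1.50, and 1 probe set shared by ND6 and Acsm2 gave -1.92. The fall of ND3, a membrane arm core subunit whose mRNA is made inside mitochondria, was of the size of the largest accessory falls.

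Of 6 genes of enzymes that work beside complex I, 3 were lower and 3 did not pass, against 17.3% of all genes lower and 31.3% higher. The complex II subunits Sdhb and Sdhc, an iron-sulfur subunit and a membrane anchor, stood at -1.04 ± 0.041 (SE) and -0.81 ± 0.029 (SE). The flavin subunit Sdha and the anchor Sdhd stood at -0.04 and -0.04, with limma adjusted p-values of 0.51 and 0.54, and both were called lower after cyclic loess, at -0.14 each. Coq9, needed for ubiquinone synthesis, was lower at -0.38, a call that ended in the test against 1.2-fold with a limma adjusted p of 0.12, and the NADPH-forming transhydrogenase Nnt, at 0.06, did not pass with a limma adjusted p of 0.16.

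Set beside other mitochondrial gene groups, the complex I members lay at a similar place. Of 47 genes of complexes II to V, 40 were lower, 1 was higher and 6 did not pass, with a median of -0.94. Of 77 mitochondrial ribosomal protein genes, 70 were lower, 1 was higher and 6 did not pass, with a median of -0.73. The share called lower was 86.0% for the complex I members, 85.1% for complexes II to V and 90.9% for the mitochondrial ribosome, against 17.3% of all genes. Whether these groups differ from each other was not tested.

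**Figure D3:**
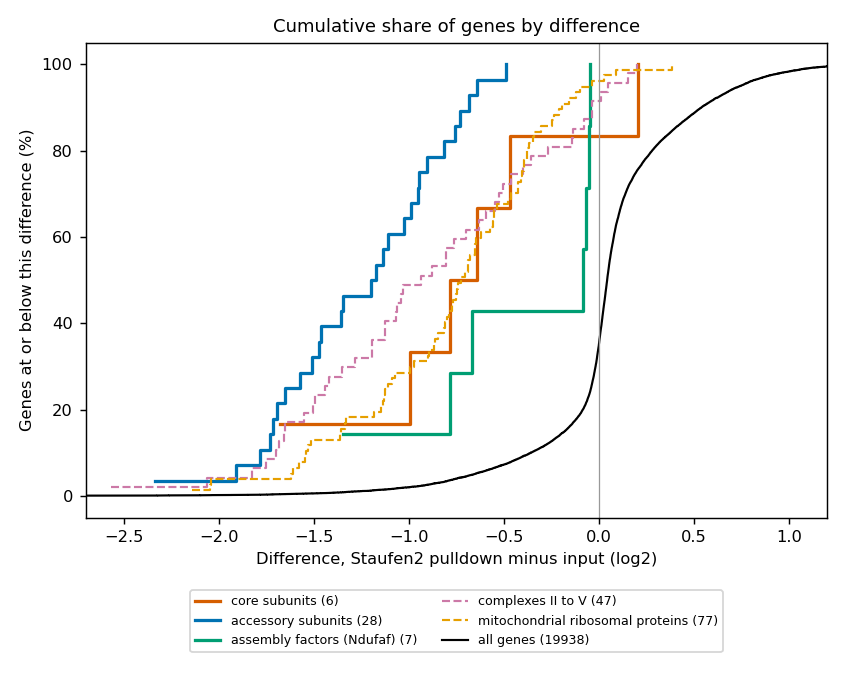
Cumulative share of genes (vertical axis, %) at or below a given pulldown minus input difference (horizontal axis, log2) for the classes of complex I genes, complexes II to V, mitochondrial ribosomal proteins and all genes. The accessory subunits lie farthest to the left, with a median of -1.19, and 4 of the 7 assembly factors lie just left of 0.

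The choice of members, made by symbol, did not use the genomic span of the gene or its level in the input. The input arrays did enter the choice of each gene's brightest probe set. Span includes introns and is a coarse stand-in for the size of the RNA, since the gene table used here gives no transcript length. The members spanned a median of 7881 bases, against 17738 bases over all genes with a span. Across the 43 members Spearman's rho between span and difference was 0.40, and across the 34 subunits 0.37, compared with 0.48 across 11637 coding genes above the overall median. These correlations are across genes on the same arrays and carry no p.

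Within each range of span the members were lower more often than other coding genes above the overall median. The members themselves were not filtered by level, and Ndufa4l2 lies under that median. Of 22 members spanning 3 to 10 kb 19 were lower, with a median of -1.10, against 45.9% of 2202 other genes with a median of -0.08. Of 11 members spanning 10 to 30 kb 9 were lower, with a median of -0.99, against 30.1% of 3850 other genes with a median of 0.05. The 5 members under 3 kb, Ndufa2, Ndufa3, Ndufaf3, Ndufb10 and Ndufb11, were all lower, against 50.7% of 676 other genes. Ndufs4 and Ndufaf2 span over 100 kb and were lower, at -0.99 and -0.78, in a range where 7.72% of 1528 other genes were lower and 1148 were higher. Of the 3 members spanning 30 to 100 kb 2 were lower and 1 was higher, with a median of -0.49, against 13.7% lower among 3339 other genes. The 3 were Ndufs1, Ndufa10 and Ndufaf5, which span 33231, 34340 and 48382 bases and stood at 0.20, -0.49 and -0.67. These shares describe the genes of each range and were not tested.

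**Figure D4:**
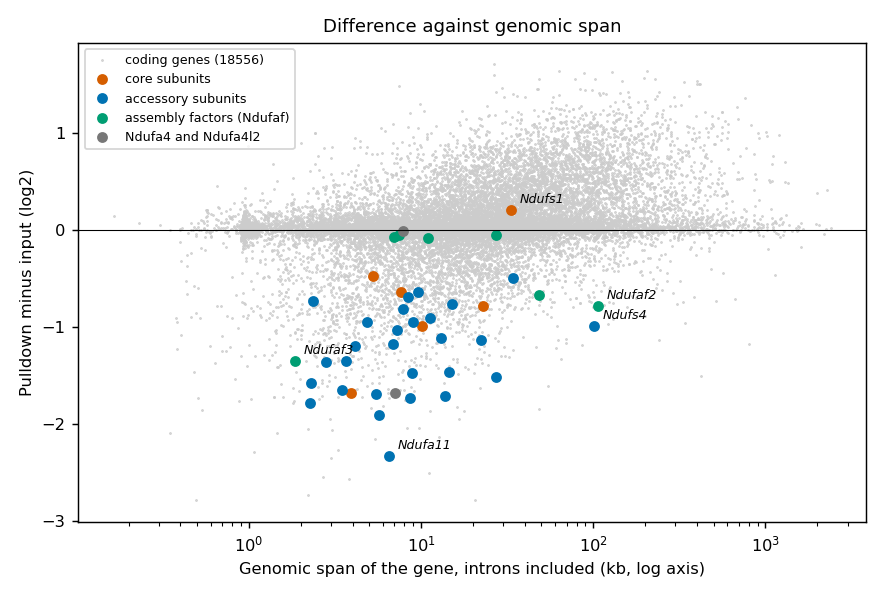
Difference between pulldown and input (vertical axis, log2) against the genomic span of the gene (horizontal axis, kb, log scale) for 18556 coding genes (grey) and the members by class. The members lie mostly in the lower part of the cloud at every span. Ndufs4 and Ndufaf2, which span over 100 kb with introns included, lie at -0.99 and -0.78, and Ndufs1 lies above 0.

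The level in the input, which depends on the probes as well as on the RNA, was also set beside the differences. Across the 34 subunits Spearman's rho between input level and difference was -0.10, and across all 43 members -0.37. Across the same 11637 coding genes as for span it was -0.09. The input level is itself part of each difference, so level and difference are not independent measures. All 12 members with an input level between 11 and 12 were lower, with a median of -1.47, against 36.4% of 1553 other genes in that range with a median of 0.05. The 3 members above 12, Ndufs7, Ndufb6 and Ndufc2, were lower too, against 46.6% of 616 other genes. Of the 4 members between the overall median and 8, Ndufb10 and Ndufaf5 were lower and Ndufaf6 and Ndufaf7 did not pass, against 13.5% of 2790 other genes.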

How the data were processed

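RNA was measured on Affymetrix arrays in 3 Staufen2 pulldown and 3 input samples, 6 arrays in all. The deposited values are log2 expression values, which the authors made with RMA. This and their use of limma come from the submitters' processing notes. Versions, genome build and background settings are not given in the sources used here. Of 35556 probe sets 21789 carry a single gene symbol, 1621 several and 12146 none. The brightest probe set by the mean of 6 arrays stood for each of 19938 genes. All 43 members and 19856 genes matched the RefSeq gene table (GRCm38.p6), which gave spans. Protein length was not used here.

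Differences were tested with limma 3.58.1 in R 4.3.3 (lmFit and eBayes, Benjamini-Hochberg over all 19938 genes, threshold 0.05), after a check on simulated data. Members, classes, motifs and lists were chosen with earlier results of these data known. All members may be named, with array values for core and assembly genes, the 8 most and 4 least negative accessory genes and every uncalled member. Alternatives were a replicate block, an intensity trend, cyclic loess, centring on probe sets above the 75th percentile, array weights, a filter on dim genes, averaging or taking the dimmest of a gene's probe sets (the dimmest added after seeing the data), a test against 1.2-fold and leaving out each array. Deviations of same-numbered pulldown and input arrays correlated at 0.02, 0.11 and -0.06, so the numbers were not taken as pairs.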

Additional observations from a re-analysis of the deposited data

How the results depend on the processing

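The count of lower members stayed at 37 under the alternatives run, except 38 after centring on the brightest probe sets and 39 after cyclic loess. No member changed sign with a call. With a replicate block 37 members were lower, 1 was higher and 9714 genes were called. The count of higher members was 0 after cyclic loess and in the test against 1.2-fold, which a rise of 1.15-fold cannot pass, and 0 to 1 on leaving out single arrays, since Ndufs1 lost its call without pulldown replicate 1 or 3. That stricter test called 4856 of all genes, against 9705. After cyclic loess the median difference was -1.09 for all members, -0.81 for the core, -1.30 for the accessory and -0.16 for the assembly genes, and after centring on the brightest probe sets it was -1.03 for all members and -1.23 for the accessory genes. Leaving out single arrays gave -1.05 to -0.97 for all members, -1.22 to -1.17 for the accessory, -0.74 to -0.69 for the core and -0.13 to -0.09 for the assembly genes, the last lowest without pulldown replicate 3. Why Ndufs1, Ndufaf1 and Ndufaf6 moved across the threshold under other scalings was not tested. Signal near the overall median limits what can be said of Ndufaf5, Ndufaf6 and Ndufa4l2.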
